A study of Mus musculus with 35 samples.

Results

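Gzmb, Prf1, Nkg7, Klrd1, Tbx21, Cd226 and Cd244a are 7 genes best known from natural killer (NK) cells and cytotoxic T cells. They were measured here in type 1 conventional dendritic cells (cDC1) sorted from mouse spleen. The 7 genes are 7 of the 19938 genes named on the arrays, and each was read by 1 transcript cluster. They were chosen by their known role in cytotoxic cells, with measured values of these same arrays in view, in particular the difference between Mycl knockout and wild-type arrays at steady state in set 2. Values from set 2 are therefore a description without a test, and tests are given only for the other sets.

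The study compared 35 arrays in 8 groups, all from cDC1 that had been purified by flow cytometry. MYCL is a transcription factor of the MYC family, and MXD1 is a factor that competes with MYC proteins for their shared partner MAX. Set 1 held 5 arrays from mice heterozygous for a GFP allele of Mycl (MyclGFP/+, HET) and 4 from homozygous mice (MyclGFP/GFP, KO) at steady state. Set 2 held 5 wild-type (Mycl+/+, WT) and 5 MyclGFP/GFP arrays at steady state. Set 3 held 5 Mycl+/+ and 5 MyclGFP/GFP arrays from mice injected intraperitoneally with poly IC (100 µg), which mimics viral double-stranded RNA, 5 h before the spleens were taken. The Mxd1 set held 3 Mxd1+/+ and 3 Mxd1-/- arrays taken 18 h after 100 µg of poly IC. Ages are not given in the labels. The arrays of a group are labelled biological replicates without saying whether each is a separate mouse, so the p-values measure the spread between these arrays. The labels name no promoter or Cre that would limit either allele to dendritic cells.

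Cytotoxic lymphocytes kill by releasing granules. Perforin opens the membrane of the target cell, and granzyme B, a serine protease, enters it and starts apoptosis. Nkg7 is a membrane protein of the granules that takes part in their release. T-bet, encoded by Tbx21, is the transcription factor that drives the cytotoxic and interferon gamma programmes of NK and T cells. Surface receptors set the threshold: CD94 (Klrd1) pairs with NKG2 proteins to read the non-classical MHC molecule Qa-1, CD226 (DNAM-1) binds the poliovirus receptor and nectin-2, and 2B4 (Cd244a) binds CD48.

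The genes lie on 7 different chromosomes, none of them chromosome 4, which carries Mycl. In GRCm38.p6 Gzmb is at chr14:56258836-56262334, Prf1 at chr10:61297751-61304684, Nkg7 at chr7:43437138-43438246, Klrd1 at chr6:129588092-129598775, Tbx21 at chr11:97098007-97115331 and Cd244a at chr1:171558718-171585316.

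The RefSeq promoter table held 5 of the 7 members (Gzmb, Prf1, Nkg7, Tbx21 and Cd244a) among 32851 promoters of 250 bases before and 50 bases after the start. These windows were searched on both strands for the core of the T-box that T-bet binds (TCACAC, reverse complement GTGTGA). The T-box core was present in 14.5% of all promoters. The Gzmb and Nkg7 windows held it, with its first base at -15 and -12 relative to the start, and the other 3 windows did not. The 250 bases before the start of these 2 genes are printed 5′ to 3′ because Tbx21 is itself a member; capitals mark the T-box core, which is a match of letters and not a measured binding site. The Gzmb stretch is chr14:56262335-56262584 on the minus strand and the Nkg7 stretch is chr7:43436888-43437137 on the plus strand.
Gzmb: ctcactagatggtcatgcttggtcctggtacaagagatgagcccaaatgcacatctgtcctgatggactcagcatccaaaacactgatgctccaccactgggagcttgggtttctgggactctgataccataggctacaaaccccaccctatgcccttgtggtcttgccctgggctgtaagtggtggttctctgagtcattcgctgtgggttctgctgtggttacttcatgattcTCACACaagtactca
Nkg7: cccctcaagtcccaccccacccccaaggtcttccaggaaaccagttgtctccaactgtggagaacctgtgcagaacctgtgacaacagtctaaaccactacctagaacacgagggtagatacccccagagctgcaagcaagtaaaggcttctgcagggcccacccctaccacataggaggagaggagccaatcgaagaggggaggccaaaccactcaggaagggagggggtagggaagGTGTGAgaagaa
The core of the interferon-stimulated element (GAAANNGAA, reverse complement TTCNNTTTC), found in 8.56% of all promoters, was in none of the 5 windows. The E-box that MYC-family factors bind (CACGTG, its own reverse complement), found in 7.15% of all promoters, was in the Cd244a window at -64 and in no other member's.

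All levels are log2 RMA values. RMA is a method that corrects the background, equalises the arrays and summarises the probes of a cluster. The sets appear to have been normalized separately: the median array level was 6.54 for set 1, 5.58 for set 2, 5.51 for set 3 and 5.97 for the Mxd1 arrays on average. Levels in different sets are therefore values side by side, and a gene's percentile among the named genes of its own array is given to place it. Percentiles also depend on the probes of each gene, so they order no gene against another. The filter level is the 30th percentile of the named clusters on each array, and a gene entered a test if the number of arrays reaching it was no lower than the size of the smaller group.

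Some libraries stood apart. In set 3 KO array 3 had a Mycl level of 8.87, near the 9.03 to 9.81 of the WT arrays, while the other KO arrays lay between 5.52 and 6.14. WT arrays 1 and 4 of set 3 had the lowest interferon response genes (log2 of summed level 12.4 and 13.8, against 15.35 to 15.56 on the other WT arrays and 15.39 to 15.73 on the KO arrays). The libraries labelled Mxd1 KO had an Mxd1 level of 10.51 against 10.82 in WT, a difference of -0.31 ± 0.11 (SE, limma adjusted p = 0.26), and the position of the probes relative to the deletion is not known here. Directions in the Mxd1 set therefore rest on the labels.

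The sorted cells carried the markers of cDC1. All 18 cDC1 markers were at or above the 30th percentile on every array, and Xcr1 and Clec9a, a chemokine receptor and a receptor for dead cells, lay between the 96.3 and 99.3 percentile. The log2 summed level of the 18 markers was 15.81 to 16.01 on HET and 16.05 to 16.1 on KO arrays of set 1. It was 15.22 to 15.3 on WT and 15.24 to 15.42 on KO arrays of set 2, and 14.79 to 15.3 and 14.82 to 14.98 in set 3. In the Mxd1 set it was 14.98 to 15.26 on WT and 15.35 to 15.4 on KO arrays. Itgae, a marker of this list, differed by -1.08 in set 3, and by -0.25 without WT arrays 1 and 4. The defining NK markers Ncr1, Klrb1c, Eomes and Gzma were under the 30th percentile on every array, which does not hold for all NK markers listed. Ncr1, the NK receptor NKp46, lay at or under the 19th percentile on all 35 arrays, Klrb1c (NK1.1) at or under 12.4, Eomes at or under 24.4 and Gzma at or under 23.8. Of the 16 NK markers on the array, 8 were under the 30th percentile on all 35 arrays and 2, Ccl5 and Klra3, were above it on all. The rest reached it on some arrays: S1pr5 on 31, Klre1 on 28, Il2rb on 26, Klrb1f on 13, Klri2 on 9 and Styk1 on 6. Of the 15 T cell markers on the array, 6 were above the 30th percentile on all 35 arrays (Cd3e, Cd247, Lat, Cd5, Cd6 and Bcl11b) and 3 were under it on all (Cd28, Themis and Trat1). The T cell receptor chains Cd3d and Cd3g reached it on 6 and 10 arrays, Cd3e lay between the 44.7 and 64.7 percentile and Cd5 between 64.5 and 81.6. In bulk RNA, more cells of a type and more RNA per cell cannot be told apart.

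**Figure D1:**
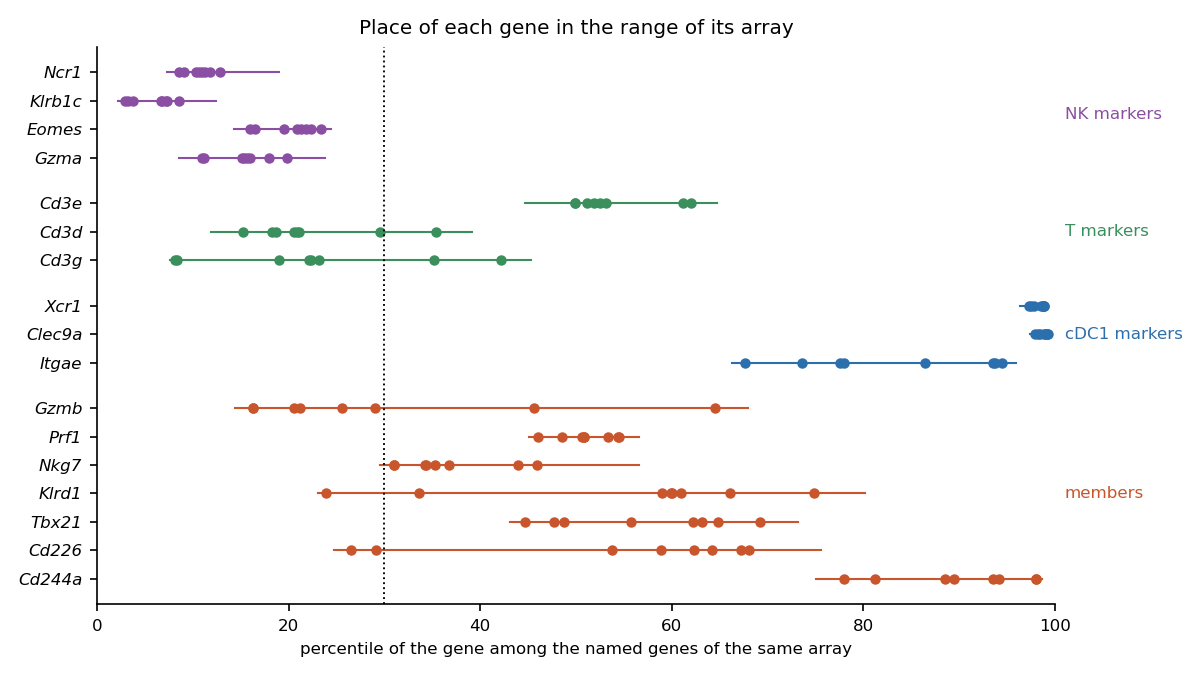
Percentile (x axis) of each gene among the named genes of the same array, for defining markers of NK cells, T cells and cDC1 and the 7 members (y axis). The markers drawn are Ncr1, Klrb1c, Eomes and Gzma, Cd3e, Cd3d and Cd3g, and Xcr1, Clec9a and Itgae. Other listed markers are not drawn, among them the NK markers Ccl5 and Klra3, which were above the 30th percentile on all arrays. Points are medians of the 8 groups, lines run from the lowest to the highest of 35 arrays, and the dotted line is the 30th percentile; Ncr1, Klrb1c, Eomes and Gzma stay left of it, and Cd244a lies at 75.1 or higher.

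Tbx21 was read in every group. Its log2 level in set 1 was 7.17, 7.52, 7.54, 7.47 and 7.71 on the HET arrays and 7.47, 7.69, 7.31 and 7.35 on the KO arrays, so the groups overlapped. The difference, KO minus HET, was -0.03 ± 0.11 (SE, 95% interval -0.26 to 0.20, limma adjusted p = 0.905). In set 2 the WT arrays were at 5.46, 5.73, 5.67, 5.72 and 5.69 and the KO arrays at 6.0, 6.07, 6.13, 5.86 and 6.16. Every KO array of set 2 lay above every WT array, with a difference of 0.39 ± 0.07, or 1.31-fold. After poly IC in set 3 the WT arrays were at 6.37, 6.49, 6.66, 6.39 and 6.49 and the KO arrays at 6.27, 6.78, 6.53, 7.09 and 6.93. KO arrays 2, 4 and 5 were above all WT arrays and KO array 1 was below them, and the difference of 0.24 ± 0.14 did not pass (95% interval -0.07 to 0.55, adjusted p = 0.413). In the Mxd1 set WT arrays were at 6.06, 5.83 and 6.19 and KO arrays at 5.77, 5.92 and 5.86, a difference of -0.17 ± 0.11 (adjusted p = 0.445). Its percentile ran from 58.7 to 66.9 among the set 1 arrays and from 44.7 to 56.6 among those of set 2. After poly IC it was 61.5 to 73.2 at 5 h (set 3) and 43.1 to 50.5 at 18 h (Mxd1 arrays).

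**Figure D2:**
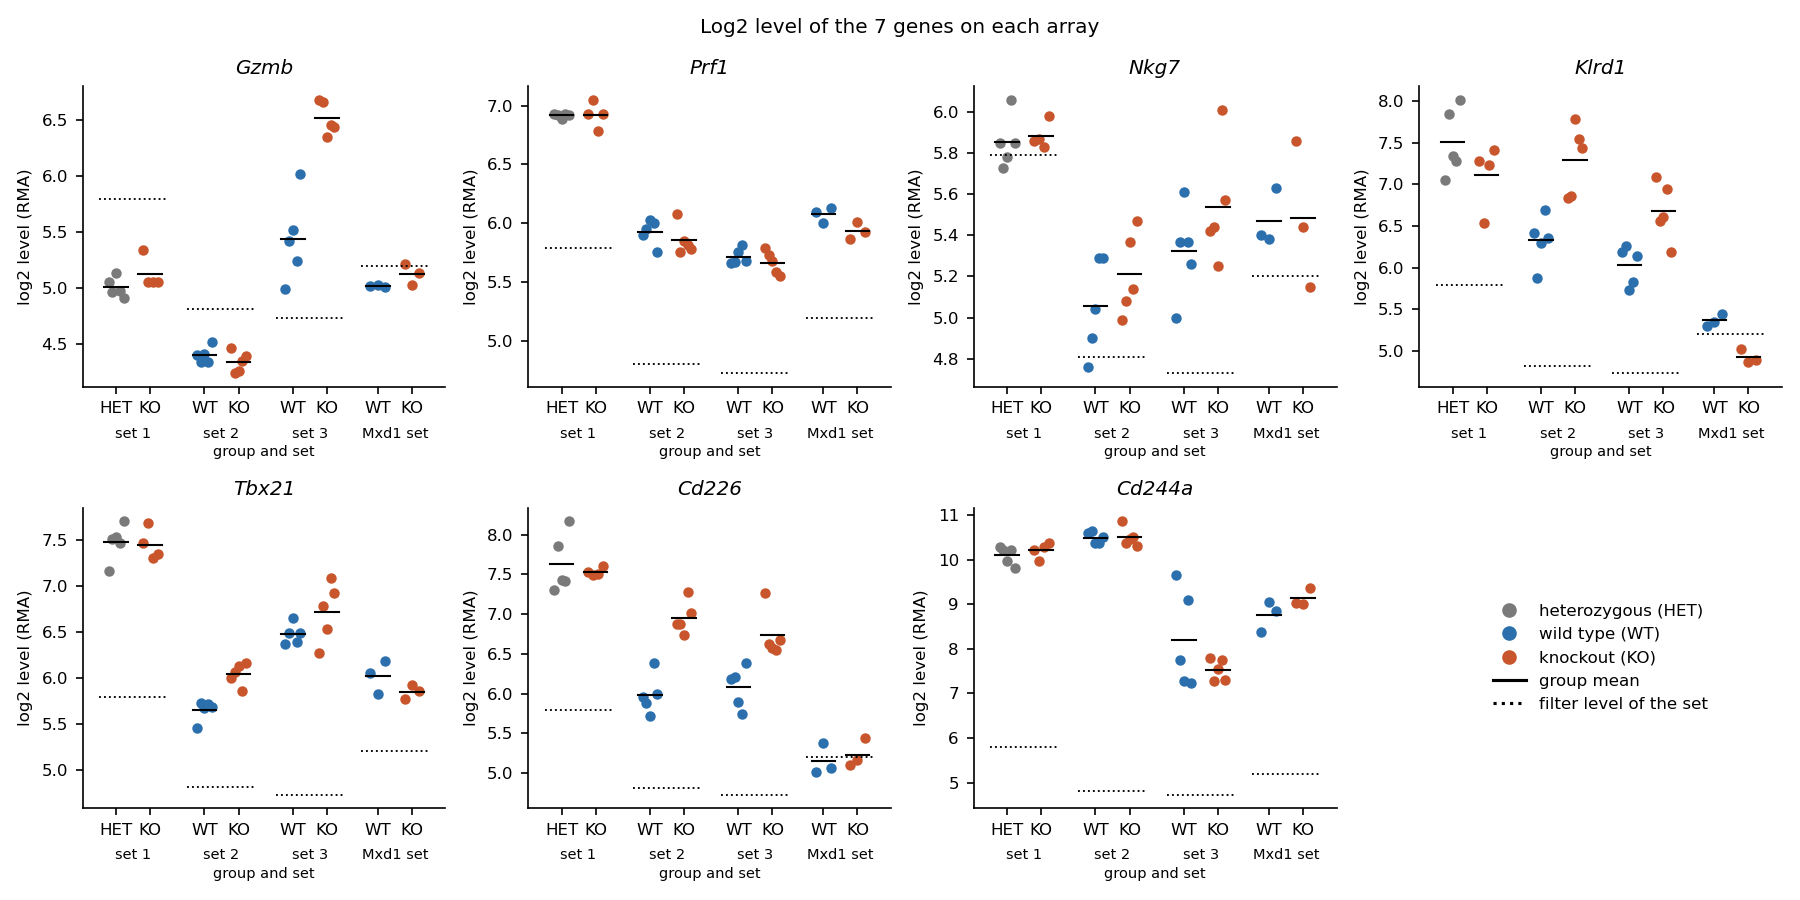
Log2 RMA level (y axis) of the 7 genes on each of 35 arrays, by group and set (x axis). Each point is 1 array, the solid line is the group mean and the dotted line the mean 30th percentile of the set; in set 3 Gzmb is at 6.35 to 6.68 on KO arrays and 4.99 to 6.02 on WT arrays, and Klrd1 and Cd226 separate by genotype in set 2 but not in set 1.

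Gzmb, the granzyme of the lytic granule, was under the filter level at steady state. Its levels in set 1 were 5.05, 4.96, 5.13, 4.97 and 4.91 on HET arrays and 5.34, 5.05, 5.05 and 5.05 on KO arrays, between the 14.4 and 20.8 percentile. In set 2 they were 4.4, 4.34, 4.41, 4.34 and 4.52 on WT arrays and 4.46, 4.24, 4.26, 4.35 and 4.39 on KO arrays, between the 19.2 and 24.1 percentile. No array of these sets reached the filter level, and Gzmb was tested in neither.
The level after 5 h of poly IC was higher in its array's range. WT arrays of set 3 read 4.99, 5.42, 5.52, 5.24 and 6.02 (36.5 to 57.1 percentile) and KO arrays 6.68, 6.66, 6.35, 6.45 and 6.44 (62.3 to 68.0 percentile). All 5 KO arrays lay above all 5 WT arrays, and the KO arrays lay closer together (SD 0.15) than the WT arrays (SD 0.38). The difference was 1.08 ± 0.16 (SE, 95% interval 0.72 to 1.44), or 2.11-fold, and missed the threshold over all genes tested (limma adjusted p = 0.121). Poly IC and the set differ together between set 3 and the steady-state sets, so the difference in percentile was not tested.
At 18 h, in the Mxd1 set, Gzmb was at 5.02, 5.03 and 5.01 on WT arrays and 5.21, 5.03 and 5.13 on KO arrays, with 1 of the 6 arrays at the filter level.

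The Gzmb difference in set 3 was set beside the arrays that stand apart. WT arrays 1 and 4, with the low interferon sums, also had the lowest Gzmb levels. Without them the difference was 0.86 ± 0.13 (adjusted p = 0.0278), and without KO array 3 as well it was 0.91 ± 0.13 (adjusted p = 0.0234), both settings chosen after the data were seen. Leaving out WT array 5, whose Gzmb level of 6.02 was nearest to the KO arrays, gave 1.23 ± 0.12 (adjusted p = 0.0147). Leaving out any other single array did not pass (adjusted p from 0.118 to 0.368). WT array 1 alone gave 0.118 and WT array 4 alone 0.277. On the 3 remaining WT arrays, whose interferon sums of 15.35, 15.36 and 15.56 fall near those of the KO arrays, Gzmb was at 5.42, 5.52 and 6.02, below the lowest KO array at 6.35. Gzmb was under the filter level on all arrays of set 1, so its difference between the KO effects of set 3 and set 1, 0.97 ± 0.19, sets the set 3 value against background and is given without a test. The comparison of these effects was added after the data were seen, and both the control genotype and poly IC differ between these sets.

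**Figure D3:**
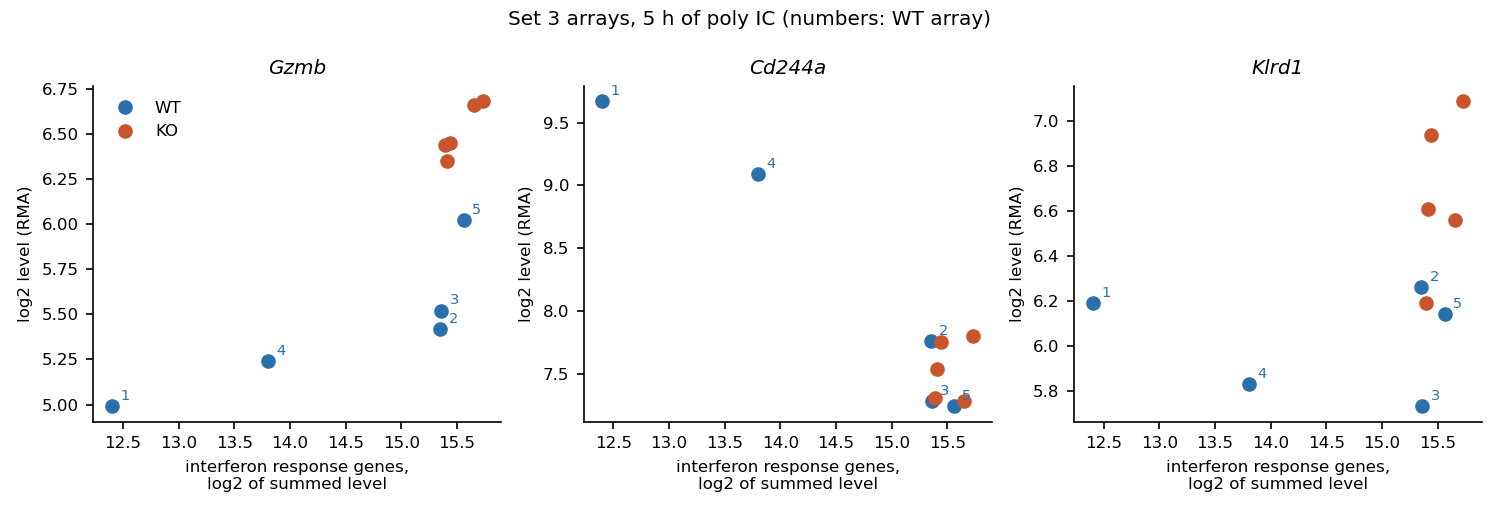
Log2 level (y axis) of Gzmb, Cd244a and Klrd1 against the log2 summed level of interferon response genes (x axis) on the 5 WT and 5 KO arrays of set 3, each point 1 array and WT arrays numbered. WT arrays 1 and 4 lie apart at 12.4 and 13.8 on the x axis, with Cd244a at 9.67 and 9.09, while the other WT arrays lie beside the KO arrays on that axis and below them for Gzmb.

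Prf1, perforin, stayed in a narrow range. In set 1 HET arrays were at 6.93, 6.92, 6.89, 6.93 and 6.92 and KO arrays at 6.93, 7.05, 6.78 and 6.93, a difference of 0.01 ± 0.05 (95% interval -0.11 to 0.12, adjusted p = 0.97). In set 2 WT arrays were at 5.90, 5.95, 6.03, 6.0 and 5.76 and KO arrays at 6.08, 5.76, 5.85, 5.82 and 5.78, a difference of -0.07 ± 0.07. In set 3 WT arrays were at 5.66, 5.67, 5.76, 5.82 and 5.68 and KO arrays at 5.79, 5.73, 5.68, 5.59 and 5.55. The groups overlapped in each of these sets, and the set 3 difference was -0.05 ± 0.07 (95% interval -0.19 to 0.09, adjusted p = 0.726). WT arrays of the Mxd1 set were at 6.10, 6.0 and 6.13 and KO arrays at 5.87, 6.01 and 5.93, a difference of -0.14 ± 0.08 (adjusted p = 0.427). Prf1 lay between the 45.1 and 56.6 percentile on all 35 arrays. Its groups thus overlapped in set 3, on the arrays where those of Gzmb did not.

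Nkg7, the granule membrane protein, was near the filter level in most groups. It was at 5.85, 5.73, 5.78, 6.06 and 5.85 on HET and 5.86, 5.87, 5.83 and 5.98 on KO arrays of set 1, a difference of 0.03 ± 0.07 (95% interval -0.11 to 0.18, adjusted p = 0.819). Set 2 gave 4.76, 4.90, 5.04, 5.29 and 5.29 on WT and 4.99, 5.08, 5.37, 5.14 and 5.47 on KO arrays, a difference of 0.15 ± 0.11. Set 3 gave 5.00, 5.37, 5.61, 5.37 and 5.26 on WT and 5.42, 5.44, 5.25, 6.01 and 5.57 on KO arrays. KO array 4 was the highest of set 3, the groups overlapped, and the difference was 0.21 ± 0.15 (95% interval -0.11 to 0.54, adjusted p = 0.475). In the Mxd1 set WT arrays were at 5.40, 5.38 and 5.63 and KO arrays at 5.86, 5.44 and 5.15, with a difference of 0.01 ± 0.17 (adjusted p = 0.976).

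Klrd1, the CD94 chain, lay on both sides of its controls in different sets. In set 1 the HET arrays were at 7.05, 7.85, 7.34, 7.28 and 8.02 and the KO arrays at 7.28, 6.54, 7.23 and 7.41. HET arrays 2 and 5 were high and KO array 2 low, and the difference was -0.39 ± 0.22 (95% interval -0.88 to 0.09, adjusted p = 0.437), which was -0.20 without KO array 2. In set 2 the WT arrays were at 6.41, 5.87, 6.30, 6.69 and 6.36 and the KO arrays at 6.84, 6.86, 7.79, 7.55 and 7.44. All KO arrays of set 2 were above all WT arrays, with a difference of 0.97 ± 0.17, or 1.96-fold. In set 3 the WT arrays were at 6.19, 6.26, 5.73, 5.83 and 6.14 and the KO arrays at 7.09, 6.56, 6.61, 6.94 and 6.19. KO arrays 1 to 4 lay above all WT arrays and KO array 5 lay among them. This difference was 0.65 ± 0.17 (95% interval 0.28 to 1.02, adjusted p = 0.252), and it was 0.64 ± 0.18 without WT arrays 1 and 4. The KO effect in set 3 exceeded that in set 1 by 1.04 ± 0.30 (95% interval 0.42 to 1.66, interaction adjusted p = 0.413).

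In the Mxd1 set Klrd1 stood lower in its arrays. The WT arrays were at 5.30, 5.35 and 5.44 (31.0 to 34.5 percentile) and the KO arrays at 5.02, 4.86 and 4.89 (23.1 to 26.8 percentile). All 3 KO arrays were below all 3 WT arrays, with a difference of -0.44 ± 0.08. The KO arrays were also below the filter level, so Klrd1 entered the fit only through the WT arrays, and this difference is given as a description without a test. The summed NK markers without Ccl5 also lay lower on the KO arrays of this set (8.77 to 8.79, against 8.81 to 8.90), as did the summed cDC2 markers (9.58 to 9.83, against 9.84 to 9.92) and monocyte and macrophage markers (10.23 to 10.32, against 10.47 to 10.60). The summed cDC1 markers went the other way (15.35 to 15.4 on KO arrays, against 14.98 to 15.26). Neutrophil sums overlapped (8.27 to 8.7, against 8.16 to 8.46), as did B cell and plasmacytoid dendritic cell sums. Of all genes tested in this set, 22.6% did not overlap. The NK sum also holds 8 markers that were under the filter level on all 35 arrays. The part of these markers in the Klrd1 difference was not tested. On WT arrays of set 2, without poly IC, Klrd1 lay between the 52.2 and 64.8 percentile, and on WT arrays of set 3, 5 h after poly IC, between 51.2 and 61.1.

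Cd226, the receptor DNAM-1 (chr18:89176954-89272232), separated by genotype in set 2 and set 3. In set 1 HET arrays were at 7.30, 7.86, 7.43, 7.42 and 8.17 and KO arrays at 7.53, 7.49, 7.50 and 7.61, a difference of -0.10 ± 0.16 (95% interval -0.44 to 0.24, adjusted p = 0.769), which was 0.03 without HET array 5. In set 2 WT arrays were at 5.96, 5.88, 5.72, 6.38 and 6.0 and KO arrays at 6.88, 6.87, 6.74, 7.28 and 7.01. The KO arrays of set 2 did not overlap the WT arrays, with a difference of 0.97 ± 0.11, or 1.96-fold. In set 3 WT arrays were at 6.19, 6.21, 5.90, 5.74 and 6.38 and KO arrays at 7.27, 6.63, 6.57, 6.55 and 6.68. The groups did not overlap there either, KO array 1 being the highest, and the difference was 0.66 ± 0.16 (95% interval 0.31 to 1.00, adjusted p = 0.229). It was 0.57 ± 0.15 without WT arrays 1 and 4. The set 3 effect exceeded the set 1 effect by 0.76 ± 0.24 (interaction adjusted p = 0.495). In the Mxd1 set Cd226 was at 5.01, 5.38 and 5.06 on WT and 5.10, 5.16 and 5.44 on KO arrays, between the 24.8 and 35.6 percentile, and it did not enter the test.

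Klrd1 and Cd226 varied together over arrays. With each set centred on its mean, Pearson's r between them was 0.79 over 35 arrays, 0.82 over the 19 steady-state arrays and 0.57 with each group centred. HET arrays 2 and 5 of set 1 had the highest levels of both. The arrays share their sets, and r is a description only. Tbx21 had an r of 0.41 with each of them over 35 arrays, and Gzmb had 0.28 with Klrd1 and 0.41 with Cd226.

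**Figure D4:**
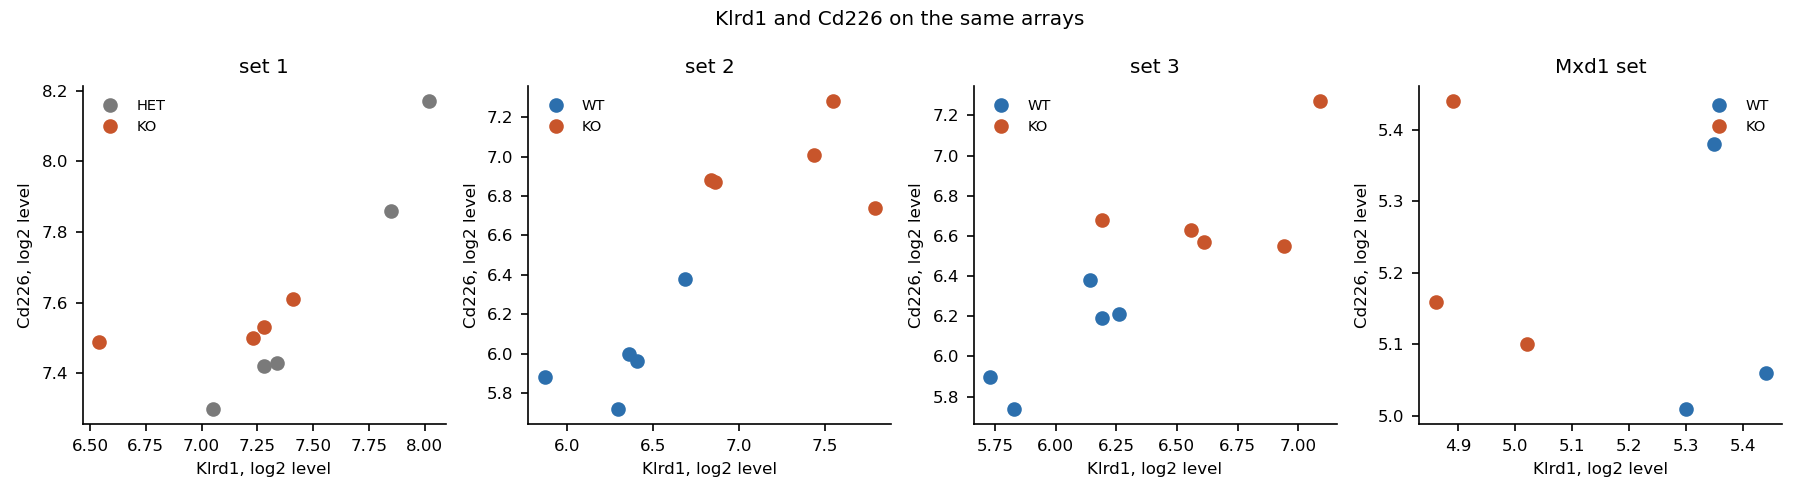
Log2 level of Cd226 (y axis) against Klrd1 (x axis), 1 panel for each set and 1 point for each array, coloured by genotype. In set 1 HET arrays 2 and 5 lie at the upper right (Klrd1 7.85 and 8.02), in set 2 all KO arrays lie above all WT arrays on both axes, and in the Mxd1 set the genotypes separate on the x axis only.

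Markers of other dendritic cells were high on some of the same set 2 arrays. The log2 of summed cDC2 markers was 9.47 to 9.81 on WT arrays and 9.78, 9.57, 10.58, 10.53 and 10.55 on KO arrays, and Cd209a, a cDC2 lectin, differed by 1.37 ± 0.25. KO arrays 3, 4 and 5, with the high sums, also had the highest Klrd1 levels. KO arrays 1 and 2 had cDC2 sums within the WT range and read 6.84 and 6.86 for Klrd1, where the highest WT array was at 6.69. Cd226 did not follow this order: KO array 3, with the highest cDC2 sum, had the lowest KO level (6.74). KO arrays 1 and 2 were at 6.88 and 6.87 for Cd226, and KO arrays 4 and 5 at 7.28 and 7.01. Plasmacytoid dendritic cell sums in set 2 were 10.69 to 10.76 on WT arrays and 10.74, 10.68, 10.95, 11.01 and 11.07 on KO arrays, again highest on KO arrays 3, 4 and 5. In set 3 the cDC2 sum was 8.90 to 9.24 on WT and 9.27 to 9.53 on KO arrays, and the plasmacytoid dendritic cell sum 10.54 to 12.25 and 12.30 to 12.38. Both sums were lowest on WT arrays 1 and 4, which had the low interferon sums. Their plasmacytoid dendritic cell sums were 10.54 and 11.76, against 12.14 to 12.25 on the other WT arrays. Bst2, a marker of that list, differed by 0.69 in set 3 and by 0.13 without these 2 arrays. B cell marker sums were 8.71 to 8.84 on WT and 8.88 to 9.12 on KO arrays of set 2, and overlapped in set 3 (8.56 to 8.69 and 8.61 to 8.94). Neutrophil sums in set 3 were 8.73 to 10.66 on WT and 9.39 to 11.48 on KO arrays. The part of these markers in the differences was not tested.
NK marker sums over all 16 markers were 9.33 to 9.80 on WT and 9.56 to 9.92 on KO arrays of set 2 (medians 9.48 and 9.85). In set 3 they were 9.14 to 11.52 on WT arrays, lowest on arrays 1 and 4, and 11.37 to 11.52 on KO arrays. The sums were also taken without Ccl5, a chemokine that activated dendritic cells make too. Over the other 15 markers they were 8.37 to 8.47 on WT and 8.51 to 8.64 on KO arrays of set 3, so these groups did not overlap. Of these 15 markers, 8 were under the filter level on all 35 arrays, so the sums hold background. Among single genes tested in set 3, 3.56% did not overlap, and the narrow gap is a description only. In set 2 these sums were 8.76 to 8.93 on WT and 8.65 to 8.91 on KO arrays (medians 8.82 and 8.79), so the order of the medians turns without Ccl5. Of the NK markers 5 entered the test in set 3, 4 lay above 0 and none was called. Their median difference was 0.33, and 0.08 without WT arrays 1 and 4. Without these arrays Klra3 was at 0.35, Il2rb 0.24, Klre1 0.08, Ccl5 0.03 and S1pr5 -0.07. The part of NK markers in the member differences was not tested. T cell marker sums were 8.99 to 9.11 on WT and 8.99 to 9.16 on KO arrays of set 3, and 9.34 to 9.53 and 9.37 to 9.59 in set 2.

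Cd244a, the SLAM-family receptor 2B4, was high in its arrays at steady state, between the 91.5 and 94.5 percentile in set 1 and between 97.7 and 98.7 in set 2. In set 1 HET arrays were at 10.28, 10.22, 9.97, 10.22 and 9.82 and KO arrays at 10.22, 9.97, 10.30 and 10.38, a difference of 0.12 ± 0.11 (95% interval -0.12 to 0.35, adjusted p = 0.621). In set 2 WT arrays were at 10.60, 10.65, 10.37, 10.37 and 10.51 and KO arrays at 10.87, 10.38, 10.46, 10.52 and 10.32, a difference of 0.01 ± 0.09. Unlike Klrd1 and Cd226, its set 2 groups overlapped. After poly IC in set 3 the WT arrays were at 9.67, 7.76, 7.28, 9.09 and 7.24 and the KO arrays at 7.80, 7.28, 7.54, 7.75 and 7.31. WT arrays 1 and 4, with low interferon genes, were high, and the other 3 WT arrays lay among the KO arrays. The difference of -0.68 ± 0.44 (95% interval -1.64 to 0.28, adjusted p = 0.451) became 0.10 without these 2 arrays (adjusted p = 0.894). In the Mxd1 set WT arrays were at 8.38, 9.06 and 8.85 and KO arrays at 9.04, 9.02 and 9.36, a difference of 0.38 ± 0.17 (95% interval -0.02 to 0.77, adjusted p = 0.331). It was 0.19 without WT array 1 and 0.53 without WT array 2.

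Counted over the 7 genes, limma called none in set 1, where 6 entered the test, against 0.0214% of all genes tested, and 0 members had an unadjusted p under 0.05, beside 14.2% of all genes. It called none of 7 in set 3, where 0% of 14033 genes were called and 1992 (14.2%) had an unadjusted p under 0.05, 3 of the members among them (Gzmb, Klrd1 and Cd226). The count over all genes in set 3 was 1910 with all 8 groups in 1 fit and 72 with array weights. In the Mxd1 set none of Prf1, Nkg7, Tbx21 and Cd244a was called, against 0.071% of all genes (15.9% of which had an unadjusted p under 0.05). Klrd1, which passed the filter there through its WT arrays alone, is left out of this count. In the interaction, Gzmb left out, none of the other 6 members was called, against 0.00678%. Groups did not overlap for 0 of 6 members in set 1 (4.46% of all genes tested) and 2 of 7 in set 3 (3.56%). In the Mxd1 set, with 22.6% of all genes, the 1 such member among those that passed the filter was Klrd1, which passed through its WT arrays alone, so nothing is read from that count. In set 2 they did not overlap for 3 of 6 members, beside 6.74% of all genes, a share that the choice of members fixed in part.

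**Figure D5:**
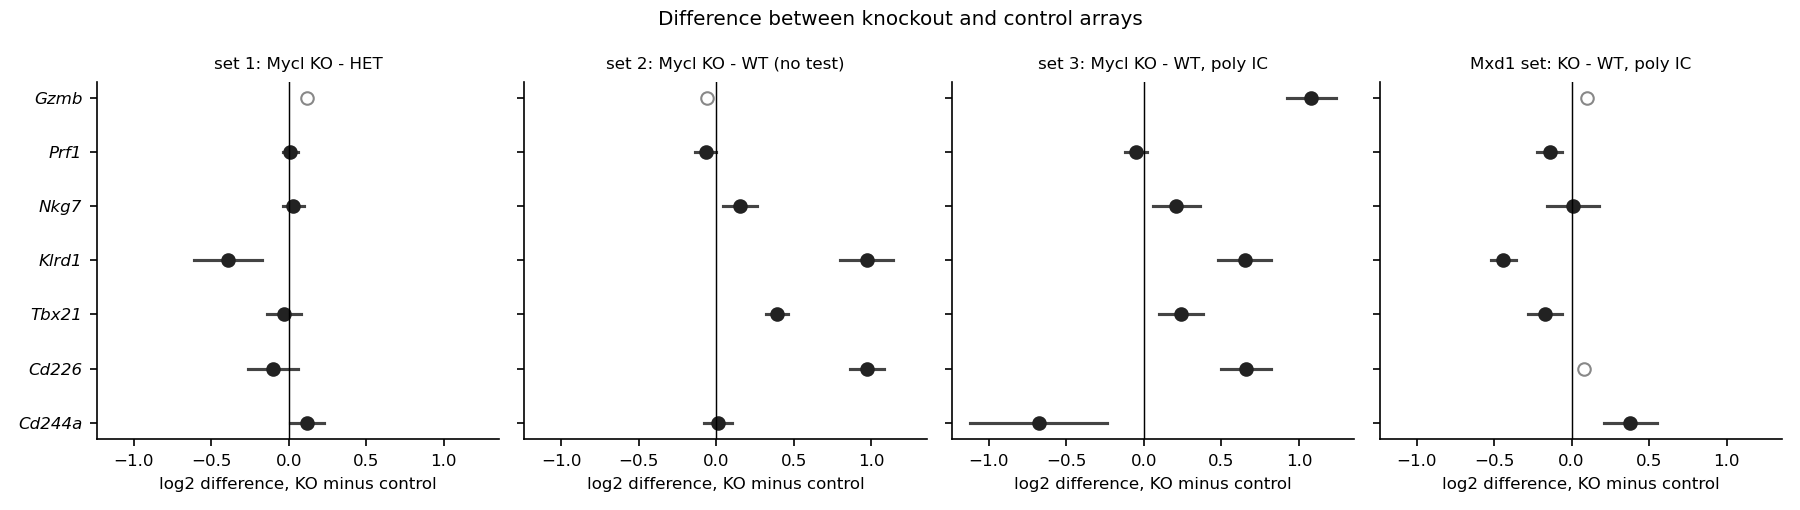
Log2 difference, KO minus control (x axis), of the 7 genes (y axis) in the 4 sets, with bars of ± 1 SE from limma; open circles did not pass the filter and have no bar. Klrd1 and Cd226 lie right of 0 in set 2 and set 3 and left of 0 in set 1 (for Cd226 not without HET array 5), and Gzmb stands at 1.08 in set 3.

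In the rest of the granule pathway no gene was called. In set 3 none of the 14033 genes tested was called, and Mycl itself missed the threshold (-2.96 ± 0.54, limma adjusted p = 0.15). The absence of calls in set 3 therefore does not set this or any other list apart. Of 16 granzymes and granule proteins, 7 entered the test in set 3, none was called and 6 lay above 0, with a median difference of 0.35 against -0.001 for all genes. WT arrays 1 and 4 had the lowest sums of this list (12.74 and 12.64, against 12.99 to 13.08 on the other WT arrays and 13.06 to 13.23 on KO arrays). Without them the median was 0.14 and 5 of 7 lay above 0. The largest were Cst7, cystatin F, a granule protease inhibitor, at 0.67 ± 0.24 (adjusted p = 0.296) and Tnfsf10, the death ligand TRAIL, at 0.58 ± 0.21 (adjusted p = 0.293). Ctsc, cathepsin C, which activates granzymes, was picked after its values were seen; it was at 9.54 on KO and 9.04 on WT arrays, a difference of 0.50 ± 0.08 with no overlap (adjusted p = 0.121). Without WT arrays 1 and 4 the differences were 0.27 for Cst7, 0.40 for Tnfsf10 and 0.45 for Ctsc. In set 1 8 of these genes entered, 6 lay above 0 and the median was 0.02. Across the 13 genes of granule release and granzyme B inhibition, none was called in set 1, set 3 or the Mxd1 set. Serpinb9, the inhibitor of granzyme B, differed by 0.69 ± 0.31 in set 3 (adjusted p = 0.349; 0.13 without WT arrays 1 and 4), by 0.13 ± 0.07 in set 1 and by -0.41 ± 0.18 in the Mxd1 set.

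Partners of the receptors are described next. Of the NK complex lectins, Klrc1 and Klrc2, the NKG2 partners of CD94, were under the filter level on all 35 arrays, while Klrk1, the activating receptor NKG2D, was above it on all. Klrk1 differed by 0.44 ± 0.08 in set 2 (no overlap) and by 0.46 ± 0.16 in set 3 (adjusted p = 0.292; 0.21 without WT arrays 1 and 4), and Klri1 by -0.41 ± 0.09 and -0.21 ± 0.08. None of the 6 or 7 lectins and adaptors tested in a set was called. Among ligands of CD226, Pvr was at 8.73 to 10.28 on WT and 9.68 to 10.24 on KO arrays of set 3 and Nectin2 at 5.25 to 6.55 and 6.09 to 6.55. Cd48, the ligand of 2B4, lay between the 92.7 and 98.9 percentile on all 35 arrays. Ligand and receptor were thus read in the same bulk RNA, which does not show whether single cells held both. None of the 10 partners and ligands tested in set 3 was called.
In the T-bet network 15 genes entered the test in set 3, 11 lay above 0 and none was called. Stat4, which carries interleukin 12 signals, differed by 1.18 ± 0.57 (adjusted p = 0.366) and Il12rb2, a chain of its receptor, by 1.05 ± 0.41 (adjusted p = 0.311). Without WT arrays 1 and 4 these were 0.13 and 0.31. Stat4 differed by -0.50 ± 0.14 in set 1 (adjusted p = 0.216) and by -1.03 ± 0.30 in the Mxd1 set (adjusted p = 0.207). Eomes, the partner of T-bet in NK cells, was under the filter level on every array.
Interferon response genes form a comparison for set 3. All 21 on the arrays lay above 0 there, with a median difference of 1.19, and none was called. Without WT arrays 1 and 4 the median was 0.08, with 19 of 21 above 0. The median was 0.05 in set 1 and -0.16 in the Mxd1 set.

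The genes whose set-centred values were most like each member over 35 arrays were found among 15067 genes, as a description. For Gzmb they were Cish, an inhibitor of cytokine signalling, with r = 0.90, Gm4951 with 0.88 and Ifnb1, interferon beta, with 0.88; over the 19 steady-state arrays these were 0.21, 0.06 and 0.29. The Gzmb likeness thus rested on the poly IC arrays. Klrd1 was nearest to S100a4 (0.82), Gpr141 (0.81) and Pea15a (0.79), with 0.85, 0.87 and 0.85 at steady state. Cd226 was nearest to Sorl1 (0.85), Tcf4 (0.81) and Rubcnl (0.79), with 0.89, 0.77 and 0.83. Cd244a was nearest to Havcr2, the receptor TIM-3, with 0.93, Slc9a9 with 0.93 and Tspan13 with 0.92, and with 0.76, 0.39 and 0.64 at steady state. Tbx21 reached 0.75 with Rad9a, 0.73 with Rbm38 and 0.71 with Vat1. Prf1 was nearest to Dspp (0.73), Foxp2 (0.64) and Psd2 (0.64). Nkg7 was nearest to Olfr1390 (0.74), Igkv19-93 (0.63) and Sirpa (0.61), with 0.69, 0.50 and 0.65 at steady state. Sirpa is among the cDC2 markers used here, and Tcf4, near Cd226, among the plasmacytoid dendritic cell markers. What these likenesses come from was not tested.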

How the data were processed

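The deposited table holds log2 values of 35556 transcript clusters on 35 arrays, made by the authors with Affymetrix Expression Console and RMA, per the submitters' processing notes; no source used here gives versions or settings. RNA came from sorted cells and was labelled with the WT Pico kit, per the labels' protocols. Clusters with 1 gene symbol (21789) gave 19938 genes; 1621 had several symbols and 12146 were not listed. Exactly equal values were shared within sets (13.62 to 1987.08 per pair on average) and hardly across sets (0.21), so no test crossed sets except the interaction, a difference of 2 within-set differences.

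Within a set, 2 groups were fitted with lmFit and eBayes (limma 3.58.1, R 4.3.3; two-sided; Benjamini-Hochberg over all genes tested; threshold 0.05) after a filter at the 30th percentile. The script was tested on simulated data. The 7 members and all gene lists were chosen with earlier results of these data known. Named genes were the members, the largest differences of each list, defining markers and the 3 genes most like each member; exceptions are stated. Alternatives covered filters, normalization, array weights, joint fits, the replicate block and left-out arrays. The labels do not say whether replicate numbers pair samples, and the main fits took the arrays as unpaired. Correlations of same-numbered arrays over all genes tested ran from -0.40 to 0.35. With the number as a block the SE in set 2 was 0.06 for Cd226 and 0.11 for Klrd1, against 0.11 and 0.17 without it. For Gzmb in set 3 it was 0.17 against 0.16.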

Additional observations from a re-analysis of the deposited data

Results flagged for a closer look

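In 42 combinations of member and group, 4 single arrays stood far from the other arrays of their group, and chance alone gives about 5% of groups such an array. Gzmb on KO array 1 of set 1 was at 5.34, where the other KO arrays were at 5.05. Prf1 on KO array 1 of set 2 was at 6.08, with the nearest KO array at 5.85. Tbx21 on WT array 1 of set 2 was at 5.46, with the nearest WT array at 5.67. Cd226 on KO array 1 of set 3 was at 7.27, with the nearest KO array at 6.68; without that array the set 3 difference of Cd226 was 0.52 (adjusted p = 0.38).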

How the results depend on the processing

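None of the members was called in set 1 or the Mxd1 set under any of the 18 and 15 alternatives run, and no called difference changed sign. For Klrd1 in the Mxd1 set, which passed the filter through its WT arrays alone, nothing is read from this. In set 3 the main fit called 0 members. The fit of all 8 groups called 3 (Gzmb adjusted p = 3.1e-07, Cd226 0.00666, Klrd1 0.0279), among 1910 genes called of 14033. Its spread comes from the arrays of all sets, and outside set 3 Gzmb was under the filter level on nearly all arrays. The SE of Gzmb was 0.11 in that fit and 0.16 in the main fit. Its p-value in that fit does not measure the spread in set 3 alone. Array weights called 1 (Gzmb 1.00, adjusted p = 0.0157), among 72 genes. Without WT arrays 1 and 4 the count was 1, among 10 genes called of 14174. Without KO array 3 as well it was 1, among 63 of 14118. Leaving out 1 array at a time gave 0 to 1. The 1 was Gzmb without WT array 5, the only gene called of 14105. The Gzmb difference ran from 0.86 to 1.23 over 21 alternatives, with adjusted p from 3.1e-07 to 0.368; the causes were not tested. The Cd244a difference in set 3, -0.68, was 0.10 without WT arrays 1 and 4. The Cd226 difference in set 1, -0.10, was 0.03 without HET array 5, 0.04 with array weights and 0.03 with the replicate block. With the replicate number as a block, Gzmb in set 3 had a difference of 1.08 with an adjusted p of 0.343, and 0 members were called in each set. Over all genes, set 1 had 3 calls and 141 with array weights, and the Mxd1 set had 10 calls and 568 without WT array 2. The number of arrays limits the precision, and Gzmb outside set 3 and Cd226 in the Mxd1 set did not enter a test within their set. Klrd1 in the Mxd1 set is a description without a test.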
